A study of Sus scrofa with 12 samples.

Results

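A set of 132 genes had lower levels in deoxyshikonin-treated than in untreated IPEC-J2 cells at 6 h, and higher levels at 24 h. Each gene had to be at least 0.5 log2 units lower at 6 h and at least 0.5 log2 units higher at 24 h, as the difference of group means of log2(TPM + 1). TPM is the length-corrected abundance of a gene relative to the total of its library. The candidates were the 11366 Ensembl pig genes whose TPM averaged 1 or more across the 12 libraries, out of 32518 identifiers in the table. The members were thus 1.16% of the candidates. A gene symbol was paired with 93 of the members, and the other 39 have an identifier alone.

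IPEC-J2 is an established, non-transformed cell line from the jejunal epithelium of the newborn pig, and deoxyshikonin is a naphthoquinone of the roots of plants of the borage family. The 4 groups of 3 libraries each were untreated cells at 6 h, cells given deoxyshikonin at 5 µmol/L for 6 h, untreated cells at 24 h, and cells given the same dose for 24 h. All groups came from this single line, the controls were described as non-treated with no vehicle named, and the labels do not say whether replicates were separate cultures, so p-values measure only the spread between these libraries, which may be technical.

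Absorptive cells of the small intestine carry an actin-cored brush border with digestive enzymes and transporters, are sealed to each other by tight junctions, and are held to the matrix by integrins that talin and kindlin proteins couple to actin. Their progress through the cell cycle is restrained by inhibitors of cyclin-dependent kinases, among them the products of CDKN2A and CDKN2B. The level of a transcript is set by its synthesis and its decay, and TPM reports only the level, as a share of the whole library.

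Of 8 epithelial markers, 7 were paired with a symbol, and all but VIL1 (0.43 to 3.6 TPM) were abundant in every library. Summed, the 7 held 5524 to 5678 TPM in the 6 h controls and 4134 to 4348 in the 6 h treated cells. At 24 h they held 5967 to 6220 in the controls and 6116 to 6280 in the treated cells. KRT8 (2166 TPM) and KRT18 (1693 TPM) were the highest in the 6 h controls. In the 6 h treated cells CLDN4 (1302 against 646 TPM) and CDH1 (581 against 528 TPM) were higher than in the 6 h controls, and the others lower. The 5 of 6 fibroblast markers with a symbol summed to 9.51 to 9.95 TPM in the 6 h controls, 5.86 to 6.86 in the 6 h treated cells, 7.83 to 8.61 in the 24 h controls and 3.28 to 3.94 in the 24 h treated cells, with DCN at 0.14 TPM or less. Of the leukocyte markers, PTPRC reached at most 0.05 TPM and CD3E 0.13 TPM, while CD79A held 266 to 335 TPM and LYZ 27.1 to 50.3 TPM, and the list summed to between 316 and 370 TPM. Of the endothelial markers, KDR reached at most 0.03 TPM and CDH5 0.35 TPM, with PECAM1 at 9.45 to 24.7 TPM. The part of these markers in the results was not tested. VIL1, one of the epithelial markers, is itself a member.

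The members were chosen by the measured treated minus control differences at 6 h and 24 h, which are therefore described without a test. The median difference of the members was -0.80 log2 units at 6 h, with a range from -2.19 to -0.50, and 0.67 at 24 h, with a range from 0.50 to 2.43. Over all candidates the medians were -0.19 and 0.08. At 6 h, 31.8% of the candidates met the lower threshold, and at 24 h, 9.95% met the upper one. The 132 genes that met both were 3.66% of the 3609 genes lower at 6 h and 11.7% of the 1131 genes higher at 24 h. The opposite pattern, higher at 6 h and lower at 24 h by the same amounts, was met by 43 genes.

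Most members were displaced further early than late. The difference at 6 h was the larger for 87 members and the difference at 24 h for 45. At 6 h 38 members differed by 1 log2 unit or more, at 24 h 17, and at both times 7. The candidates were also spread more widely early. Their lower and upper quartiles were -0.62 and 0.26 at 6 h, and -0.12 and 0.27 at 24 h. A larger early difference was thus not particular to the members. In summed abundance the members held 3644 ± 121 TPM (SD, n = 3) in the 6 h controls and 1970 ± 101 TPM (SD, n = 3) in the 6 h treated cells. At 24 h they held 3151 ± 63.3 TPM (SD, n = 3) in the controls and 5089 ± 88.9 TPM (SD, n = 3) in the treated cells. The summed libraries of each group lay apart from those of the other groups. Within each time the rule itself set the treated sums apart from the control sums, so this is a description. In such bulk libraries fewer cells that express a gene and less of its RNA per cell cannot be told apart.

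**Figure D1:**
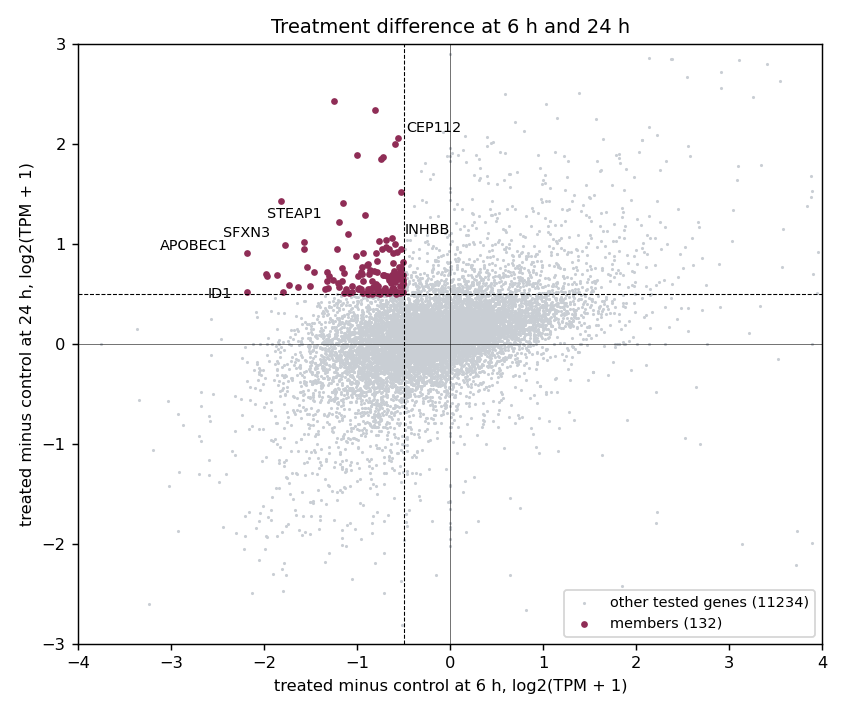
Treated minus control at 6 h (horizontal axis) against the same at 24 h (vertical axis), both as differences of mean log2(TPM + 1), for the 11366 candidate genes. The 132 members (dark points) lie left of -0.5 and above 0.5 (dashed lines) because the rule put them there, and 40 genes lie outside the axes.

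The rule has sharp edges in a dense region. Just inside stood USP43, with -0.50 at 6 h and 0.69 at 24 h, and SHH, with -0.89 and 0.50. Just outside stood MTUS1, with -1.21 and 0.4997, and SEMA7A, with -0.97 and 0.497. For 70 members the smaller of the early and the late difference lay between 0.5 and 0.6, and 142 further genes had it between 0.4 and 0.5.

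The scaling of the libraries moved this edge. With TPM as deposited the median difference over all candidates was -0.19 at 6 h. It was -0.06 after rescaling by the median of ratios and -0.04 after quantile normalization. The former divides each library by its median ratio to the gene means, over 7459 genes with a mean of at least 10 TPM and no 0. At 24 h the median difference over all candidates was 0.08 as deposited and 0.01 under both. Of the 132 members, 60 met both thresholds after median-of-ratios rescaling, 59 after quantile normalization and 49 under both. The opposite pattern had 59 genes after median-of-ratios rescaling and 65 after quantile normalization, beside the 43 with TPM as deposited.

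The named members were grouped by what they are known to do, after the members were known and without a test of the groups. The 25 named by size all met the thresholds after median-of-ratios rescaling. Of these, 23, all but TOR4A and ENPP5, also met them after quantile normalization. They had been picked for a large smaller difference and no overlap at either time, which favours this outcome. Of the 24 members named after their values were seen, 4 (DPP4, SLC1A1, TLN1 and CLDN9) met both thresholds under both rescalings. Under both rescalings 16 did not: INHBB, TUBB6, IDH1, CEP112, LRP2, FBLIM1, RSU1, ARHGAP29, FERMT2, ECI2, TMEM230, MTAP, CGNL1, TIMP3, FOXA1 and SHH. TPM4 did not after median-of-ratios rescaling, and EGLN3, CALD1 and SLC7A7 did not after quantile normalization.

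APOBEC1, the cytidine deaminase that edits the messenger RNA of apolipoprotein B in the small intestine, had one of the largest early differences. Its level was 18.5, 19.5 and 18.7 TPM in the 6 h controls and 3.19, 3.14 and 3.81 TPM in the 6 h treated libraries. At 24 h it was 23, 24.9 and 25.7 TPM in the controls and 42.7, 49.3 and 48.7 TPM in the treated libraries. The groups did not overlap at either time, and the 24 h treated libraries held more than any other library. The differences were -2.19 log2 units at 6 h and 0.91 at 24 h.

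SFXN3, a mitochondrial carrier of the sideroflexin family, which transports serine for one-carbon metabolism, stood at 9.32, 8.91 and 10.2 TPM in the 6 h controls and 2.59, 1.33 and 2.37 TPM in the 6 h treated libraries. At 24 h the controls held 9.13, 9.39 and 7.71 TPM, and the treated libraries 16.6, 18.9 and 19.7 TPM. The 6 h treated libraries lay below all controls and the 24 h treated libraries above all controls. FPGS, which adds glutamate residues to folates and so retains them in the cell, followed the same course at a low level, with 2.6 ± 0.416 (SD, n = 3) TPM in the 6 h controls, 0.88 ± 0.248 (SD, n = 3) in the 6 h treated cells, 1.92 ± 0.257 (SD, n = 3) in the 24 h controls and 4.51 ± 0.634 (SD, n = 3) in the 24 h treated cells.

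STEAP1, a membrane protein of the metalloreductase family, differed from these in its controls. It stood at 6.74, 7.53 and 6.28 TPM in the 6 h controls and 2.18, 2.56 and 2.52 TPM in the 6 h treated libraries, and at 24 h 2.97, 2.48 and 2.31 TPM in the controls and 7.19, 8.27 and 6.66 TPM in the treated libraries. The 24 h controls were thus as low as the 6 h treated cells, and the 24 h treated cells were at the level of the 6 h controls. Its differences were -1.20 at 6 h and 1.22 at 24 h.

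Brush border and mucosal enzymes were among the members. GCNT3, which builds branched O-glycans of mucins, stood at 16.3, 16.4 and 16.4 TPM in the 6 h controls and 4.34, 3.44 and 3.61 TPM in the 6 h treated libraries, then 11.5, 11.1 and 10.8 TPM in the 24 h controls and 18.1, 19.6 and 18.3 TPM in the 24 h treated libraries. MGAM2, a relative of the brush border maltase-glucoamylase, varied more between replicates. It measured 5.58, 7.58 and 20.2 TPM in the 6 h controls, 4.32, 1.44 and 2.53 in the 6 h treated cells, 8.42, 13.1 and 6.1 in the 24 h controls and 27.4, 14.3 and 17 in the 24 h treated cells, and the treated libraries stayed apart from the controls of the same time although the highest 6 h control exceeded 2 of the 24 h treated libraries.

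VIL1, the villin that bundles actin in microvilli, was lowly expressed, with 1.44 ± 0.0802 (SD, n = 3) TPM in the 6 h controls, 0.483 ± 0.0473 (SD, n = 3) in the 6 h treated cells, 1.51 ± 0.15 (SD, n = 3) in the 24 h controls and 3.06 ± 0.585 (SD, n = 3) in the 24 h treated cells. CYP2S1, a cytochrome P450 of epithelia outside the liver, had 10.6 ± 0.798 (SD, n = 3) TPM, 4.91 ± 1.15 (SD, n = 3) TPM, 9.92 ± 1.2 (SD, n = 3) TPM and 16.4 ± 0.345 (SD, n = 3) TPM in the same order. DPP4, the dipeptidyl peptidase of the brush border, was picked out after its values were seen, and its libraries overlapped at both times. It held 36.8, 36.6 and 22.6 TPM in the 6 h controls, 28, 5.7 and 9.9 in the 6 h treated cells, 15.4, 35.4 and 30 in the 24 h controls and 61.8, 27.6 and 37.5 in the 24 h treated cells. DPP4 is therefore a member by its group means only.

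The cell cycle inhibitor genes CDKN2B and CDKN2A were also members. CDKN1A, another such inhibitor, was not a member, with differences of 0.58 at 6 h and 0.14 at 24 h. CDKN2B, which encodes the p15 inhibitor of the cyclin D kinases, stood at 27.1, 28.1 and 28.3 TPM in the 6 h controls and 15.7, 13.7 and 17.5 TPM in the 6 h treated libraries. At 24 h it had 36.9, 40.6 and 40.8 TPM in the controls and 71, 75.3 and 78 TPM in the treated libraries, the highest of the 4 groups. CDKN2A, which encodes the p16 inhibitor and the ARF protein, stood at 45, 47.7 and 39.7 TPM in the 6 h controls, 27.2, 23.5 and 30.1 TPM in the 6 h treated libraries, 37.6, 31.1 and 33.2 TPM in the 24 h controls and 74.5, 67.5 and 60.3 TPM in the 24 h treated libraries. The differences of CDKN2A were -0.70 and 0.97, and those of CDKN2B -0.80 and 0.91.

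MTAP, an enzyme of methionine salvage, was a member, with differences of -1.05 at 6 h and 0.52 at 24 h, and was named after its values were seen. Its level was 53.6 ± 0.681 (SD, n = 3) TPM in the 6 h controls, 25.3 ± 1.09 (SD, n = 3) in the 6 h treated cells, 32.3 ± 2.07 (SD, n = 3) in the 24 h controls and 46.8 ± 1.75 (SD, n = 3) in the 24 h treated cells. In the RefSeq gene order of assembly Sscrofa11.1, 1 protein-coding gene separates CDKN2B and MTAP. CDKN2A was not matched by symbol in that table. ENPP5 and RCAN2, also members, were direct neighbours there, the 1 adjacent pair among the 83 members matched once. How reads were divided between neighbouring genes is not given in the sources used here.

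RCAN2, a regulator of the calcium-dependent phosphatase calcineurin, had a tight spread at every time. It was at 34.1, 37.3 and 34.9 TPM in the 6 h controls, 12, 11.2 and 11.4 in the 6 h treated cells, 44.2, 44.6 and 43.5 in the 24 h controls and 70.6, 79.4 and 78.4 in the 24 h treated cells. Its neighbour ENPP5, of the nucleotide pyrophosphatase and phosphodiesterase family, differed less, with -0.68 at 6 h and 0.68 at 24 h.

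**Figure D2:**
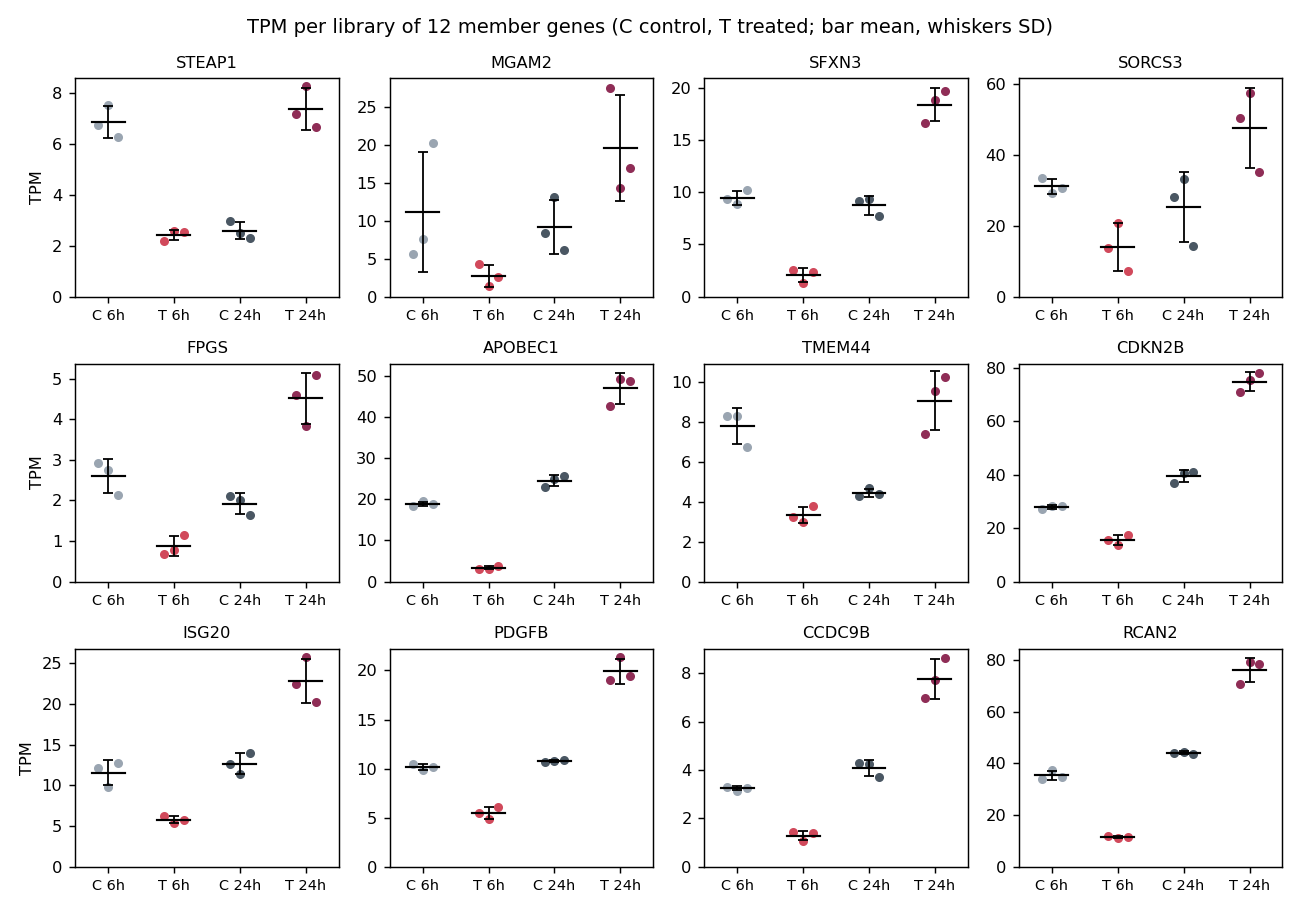
TPM of 12 members in each of the 12 libraries (points), with the mean (bar) and SD (whiskers, n = 3), for control (C) and treated (T) cells at 6 h and 24 h. The 12 were picked from members with no overlap of treated and control libraries at either time. The 6 h treated libraries therefore lie below the 6 h controls, and the 24 h treated libraries above the 24 h controls, by choice. In STEAP1 the 24 h controls lie at the level of the 6 h treated libraries.

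Some members encode signalling proteins or transcription regulators. PDGFB, the B chain of platelet-derived growth factor, measured 10.5, 9.84 and 10.2 TPM in the 6 h controls, 5.48, 4.89 and 6.09 in the 6 h treated cells, 10.6, 10.8 and 10.9 in the 24 h controls and 19, 21.4 and 19.4 in the 24 h treated cells. Its controls differed by 0.08 log2 units between the times, and its treated cells by -0.79 from the early and 0.83 from the late control. DLX4, a homeobox transcription factor, had differences of -0.86 and 0.74.

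ID1, an inhibitor of basic helix-loop-helix transcription factors and a target of bone morphogenetic protein signalling, had one of the largest early differences. Its level was 119, 99.2 and 96 TPM in the 6 h controls and 20.9, 17.6 and 29.3 TPM in the 6 h treated libraries. At 24 h it had 76.8, 78.6 and 84.3 TPM in the controls and 117, 115 and 112 TPM in the treated libraries. The late difference, 0.52, was smaller than the early one, -2.19, and was 0.44 after median-of-ratios rescaling, under the threshold. The 24 h treated libraries overlapped the 6 h controls.

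BHLHE40, a repressor linked to the circadian clock, was abundant, with 108 ± 5.59 (SD, n = 3) TPM in the 6 h controls, 66 ± 6.55 (SD, n = 3) in the 6 h treated cells, 106 ± 5.2 (SD, n = 3) in the 24 h controls and 156 ± 5.81 (SD, n = 3) in the 24 h treated cells. FOXA1, a transcription factor of endodermal epithelia, SHH, the secreted hedgehog ligand, and INHBB, a subunit of activin B, were members named after their values were seen. INHBB held 8.56, 8.89 and 7.58 TPM in the 6 h controls, 4.71, 4.87 and 5.6 in the 6 h treated cells, 6.14, 6.67 and 5.8 in the 24 h controls and 13.7, 14 and 14.4 in the 24 h treated cells, and its late difference, 1.06, exceeded its early one, -0.62. SHH stayed under 5 TPM in every library, and FOXA1 had differences of -0.66 and 0.51. INHBB missed the early threshold after rescaling (-0.49 and -0.35), and SHH (0.44 and 0.46) and FOXA1 (0.43 and 0.42) the late one. BHLHE40 missed the late one after median-of-ratios rescaling (0.47).

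Interferon-induced genes were represented by ISG20, an exonuclease, and IFI6. ISG20 was at 12.1, 9.83 and 12.7 TPM in the 6 h controls, 6.25, 5.32 and 5.78 in the 6 h treated cells, 12.6, 11.4 and 14 in the 24 h controls and 22.4, 25.8 and 20.3 in the 24 h treated cells. IFI6 had 7.26 ± 0.468 (SD, n = 3) TPM, 4.5 ± 1.14 (SD, n = 3) TPM, 9.77 ± 1.55 (SD, n = 3) TPM and 16.9 ± 2.31 (SD, n = 3) TPM in the same order. The early difference of IFI6, -0.61, was -0.48 after median-of-ratios rescaling and -0.33 after quantile normalization.

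Several members act where integrins meet the actin cytoskeleton, a grouping made after the members were known and not tested. TLN1, the talin that couples integrins to actin, measured 83.1, 89.1 and 85.2 TPM in the 6 h controls, 49.1, 41.9 and 51.8 in the 6 h treated cells, 77.3, 72.6 and 59.8 in the 24 h controls and 104, 112 and 109 in the 24 h treated cells. FERMT2 (kindlin-2, which activates integrins with talin), RSU1 (a partner of the integrin-linked kinase complex) and FBLIM1 (migfilin, which links kindlin-2 to filamin) were also members. Their differences were -0.53 and 0.77 for FERMT2, -0.63 and 0.55 for RSU1, and -0.61 and 0.56 for FBLIM1, and none of these 3 met both thresholds after median-of-ratios rescaling.

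Actin-binding proteins were members as well, although TPM4 missed the early threshold after median-of-ratios rescaling (-0.48) and CALD1 the late one after quantile normalization (0.498). TPM4, a tropomyosin that covers actin filaments and the most abundant member, had 372 ± 13.3 (SD, n = 3) TPM in the 6 h controls, 239 ± 8.47 (SD, n = 3) in the 6 h treated cells, 347 ± 12.3 (SD, n = 3) in the 24 h controls and 532 ± 16.9 (SD, n = 3) in the 24 h treated cells. CALD1, the caldesmon that restrains actomyosin, stood at 45.6, 46.4 and 45.1 TPM in the 6 h controls and 13.4, 12.8 and 12.9 TPM in the 6 h treated libraries. At 24 h CALD1 had 45.3, 44.2 and 48.5 TPM in the controls and 59.5, 74.8 and 75.9 TPM in the treated libraries. The early treated libraries were far below all controls, which overlapped between the times. ARHGAP29, a GTPase-activating protein, had differences of -0.89 and 0.53, the latter 0.45 and 0.46 after the rescalings.

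Transporters and mitochondrial proteins were members too. SLC7A7, which exports cationic amino acids at the basolateral membrane, held 26.1, 29.2 and 28.1 TPM in the 6 h controls, 9.7, 8.34 and 9.4 in the 6 h treated cells, 39.4, 40.7 and 37.7 in the 24 h controls and 59.1, 59.8 and 58.8 in the 24 h treated cells. SLC1A1, a glutamate transporter of the apical membrane, had differences of -1.16 and 0.63. PPIF, the mitochondrial cyclophilin of the permeability transition, was at 97.8, 98.2 and 102 TPM in the 6 h controls, 60.4, 56.7 and 55 in the 6 h treated cells, 49.2, 56.3 and 54.2 in the 24 h controls and 76.4, 90.3 and 100.1 in the 24 h treated cells. As in STEAP1, the late controls of PPIF were as low as the early treated cells.

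The other members named by size were SORCS3, a sorting receptor, TMC6, a transmembrane channel-like protein, TRIM47, of the tripartite motif family, TOR4A, of the torsin family, and TMEM44, CCDC9B, GLIPR1, LURAP1L and TTC9. Their early differences ran from -1.46 in TMC6 to -0.72 in TOR4A, and their late ones from 0.68 in TRIM47 to 0.95 in SORCS3. TIMP3, an inhibitor of matrix metalloproteinases named after its values were seen, was abundant, with 222 ± 4.43 (SD, n = 3) TPM in the 6 h controls, 129 ± 1.4 (SD, n = 3) in the 6 h treated cells, 319.5 ± 14.4 (SD, n = 3) in the 24 h controls and 456 ± 18.8 (SD, n = 3) in the 24 h treated cells.

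IDH1, the cytosolic isocitrate dehydrogenase that supplies NADPH, and EGLN3, a prolyl hydroxylase of hypoxia-inducible factors, were metabolic members named after their values were seen. IDH1 had 88.7 ± 0.146 (SD, n = 3) TPM in the 6 h controls, 49.5 ± 0.842 (SD, n = 3) in the 6 h treated cells, 68.2 ± 4.79 (SD, n = 3) in the 24 h controls and 101 ± 5.69 (SD, n = 3) in the 24 h treated cells. EGLN3 had differences of -0.66 and 0.64. Junction and endocytosis genes named in the same way were CLDN9, a claudin, with -0.94 and 0.62, CGNL1, which encodes paracingulin, with -0.51 and 0.82, and LRP2, the endocytic receptor megalin, with -0.56 and 0.68.

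The course of the untreated cells split the members into 3 kinds. The rule uses the same control libraries and favours a high early and a low late control, so these values are a description with no test. In 90 members the controls at 24 h and 6 h lay within 0.5 log2 units of each other. In 37 the controls were lower at 24 h by at least 0.5 log2 units, a size reached by 13% of the candidates, and in 5 they were higher by as much, against 8.63% of the candidates. The median control difference of the members was -0.22 and that of the treated cells 1.32, against -0.07 and 0.15 over all candidates. Treated cells were higher at 24 h than at 6 h by at least 0.5 log2 units in 125 members, against 30.3% of the candidates, and by at least 1 in 98, against 11.5%.

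The late treated libraries can be set beside the early controls, although the rule and this split together largely fix the outcome. In 72 of the 90 members with controls within 0.5, every 24 h treated library exceeded every 6 h control, as in APOBEC1, SFXN3, PDGFB, TLN1 and CALD1. Among all candidates with such controls the share was 37.3%. Of the 37 members with lower late controls, 5 had it, as in GCNT3, against 3.52% of such candidates. In 25 of the 37 the 24 h treated and 6 h control libraries overlapped, as in STEAP1, and in 7 the 24 h treated cells were below every 6 h control, against 86.1% of such candidates.

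INSIG1, which holds the sterol-sensing activator of cholesterol synthesis in the endoplasmic reticulum, was of the last kind. It measured 54.7, 54.5 and 53.8 TPM in the 6 h controls, 36.6, 35.2 and 33 in the 6 h treated cells, 18.3, 18.5 and 17.3 in the 24 h controls and 29.3, 32.4 and 27.6 in the 24 h treated cells. It was the one member whose treated cells were lower at 24 h than at 6 h, with a difference of -0.23 log2 units, beside -1.54 in the controls. TUBB6, a beta-tubulin, had time differences of -1.34 in controls and 0.19 in treated cells.

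The 5 members whose controls were higher at 24 h included TIMP3, SHH, CEP112 and TMEM230. In TMEM230, a protein of vesicle membranes, the controls had 2.44, 3.4 and 3.75 TPM at 6 h and 13.9, 14 and 14 TPM at 24 h, and the treated libraries 3.19, 0.89 and 1.25 TPM at 6 h and 19.2, 21.6 and 20.6 TPM at 24 h. Treated and untreated cells were both higher at 24 h, and the 6 h groups overlapped.

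**Figure D3:**
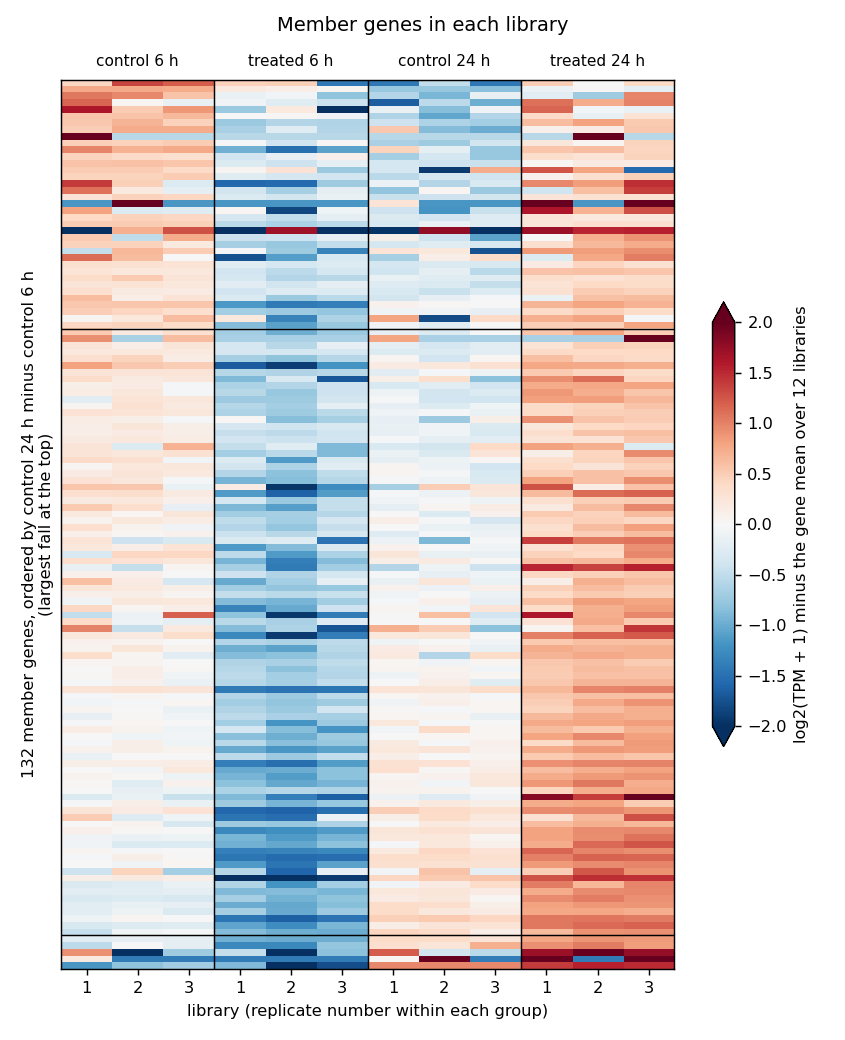
Level of each of the 132 members (rows) in each library (columns) as log2(TPM + 1) minus the gene's mean over the 12 libraries, with colours ending at -2 and 2. Rows are ordered by control at 24 h minus control at 6 h, and horizontal lines part the 37 members with controls lower at 24 h by at least 0.5, the 90 within 0.5 and the 5 higher by at least 0.5. The 6 h treated columns are the bluest and the 24 h treated columns the reddest in most rows.

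Among the 4 group means, that of the 6 h treated cells was the lowest and that of the 24 h treated cells the highest in 106 members. The same order was found in 16.3% of the candidates. The rule favours this order, so it is a description.

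The change from 6 h to 24 h averaged over treated and untreated cells is orthogonal to both treatment differences that the rule used. Its value still depends on them. It equals the control change plus 0.5 times the late difference minus the early one. In a member this added part is at least 0.5 log2 units, so the rule favours a rise unless the controls fell. The averaged change was tested for 11897 genes, assembled loci included, with limma and Benjamini-Hochberg adjustment at a threshold of 0.05. Of all genes tested 73.7% passed, 40.4% as higher at 24 h and 33.3% as lower. Of the 132 members 103 passed: 96 were higher at 24 h (72.7%), 7 were lower (5.3%), and the other 29 did not pass. The median averaged change was 0.56 log2 units over the members and 0.03 over the candidates. Of the 90 members with controls within 0.5, 85 passed as higher and 0 as lower. The rule and this split put each of these averages above 0, so the 0 was fixed in advance. The counts of members and of all genes stand beside each other as a description, without a test of the set.

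APOBEC1 rose by 1.90 (SE 0.05, limma adjusted p = 4.08e-10) in the averaged change, and its time differences were 0.36 in controls and 3.45 in treated cells. RCAN2 rose by 1.46 (SE 0.04, limma adjusted p = 3.44e-10), SLC7A7 by 1.53 (SE 0.04, limma adjusted p = 4.08e-10) and CDKN2B by 1.34 (SE 0.05, limma adjusted p = 3.36e-09). TMEM230 rose most among the members, by 2.44 (SE 0.17, limma adjusted p = 1.55e-07). CDKN2A rose by 0.46 (SE 0.08, limma adjusted p = 0.000202) in the average, with -0.37 in controls and 1.29 in treated cells. TLN1 rose by 0.44 (SE 0.07, limma adjusted p = 0.000111) in the average, with -0.30 in controls and 1.17 in treated cells. PDGFB and CALD1 rose by 0.89 (SE 0.05, limma adjusted p = 3.56e-08) and 1.17 (SE 0.06, limma adjusted p = 1.17e-08), with control differences of 0.08 and 0.01. The rises of all these genes include the treatment differences that chose them, and those of PDGFB and CALD1 consist almost wholly of them. Their p-values are therefore no separate support for the pattern.

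Among the members that fell in the averaged change, INSIG1 changed by -0.88 (SE 0.04, limma adjusted p = 1.14e-08), TUBB6 by -0.57 (SE 0.10, limma adjusted p = 0.000307) and ECI2, an enzyme of fatty acid oxidation named after its values were seen, by -0.27 (SE 0.05, limma adjusted p = 0.000194). For STEAP1 the averaged change was 0.08 (SE 0.07, limma adjusted p = 0.326), for MTAP 0.07 (SE 0.04, limma adjusted p = 0.097) and for PPIF -0.14 (SE 0.06, limma adjusted p = 0.0595), none of which passed. The control and treated time differences of STEAP1 were -1.13 and 1.29, of MTAP -0.71 and 0.86, and of PPIF -0.89 and 0.62. MTAP passed without 24 h control replicate 1 (0.09), and PPIF without 24 h control replicate 2 (-0.16) and without 24 h treated replicate 3 (-0.18). SORCS3, at 0.71 (SE 0.25, limma adjusted p = 0.0245), passed with all libraries and did not pass when any 1 of 4 libraries was left out: its values were 0.52 without 6 h treated replicate 3, 0.65 and 0.59 without 24 h control replicates 1 and 2, and 0.63 without 24 h treated replicate 2.

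**Figure D4:**
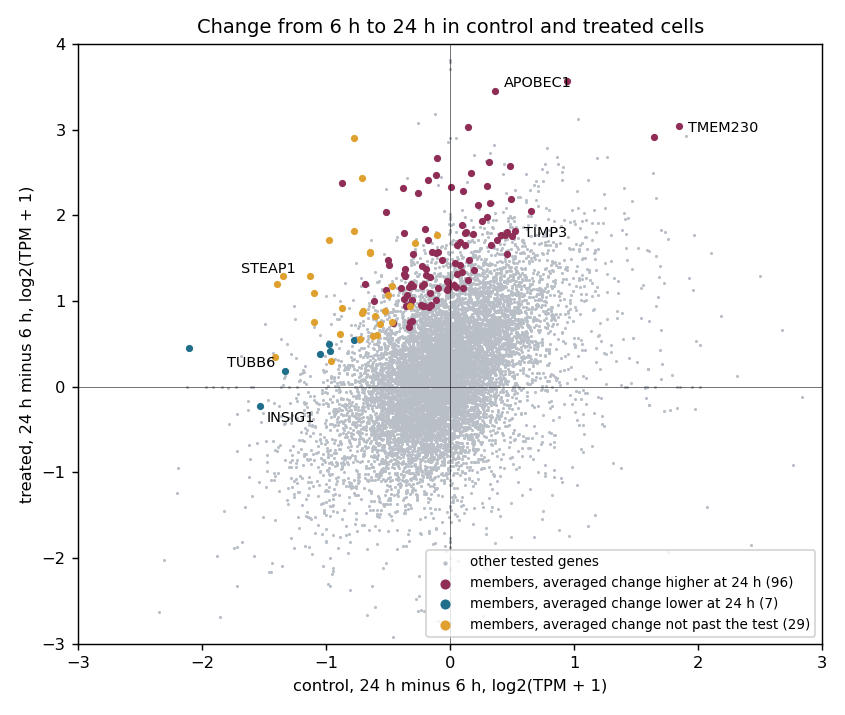
Change from 6 h to 24 h in log2(TPM + 1), in control cells (horizontal axis) and treated cells (vertical axis), for the candidates (grey) and the members (colours by the limma test of the average of both changes, adjusted p under 0.05). The 96 members that were higher at 24 h lie in the upper part, mostly near a control change of 0, the 7 that were lower lie at control changes of -0.78 or less, and 31 genes lie outside the axes.

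The libraries of a group were further apart for the members than for other genes. The median within-group SD of log2(TPM + 1) was 0.15 for the members and 0.09 for all candidates. Treated and control libraries did not overlap at 6 h in 111 members and at 24 h in 110, against 51.1% and 35.9% of the candidates in the same directions. Both held in 102 members, against 11.7% of the candidates, and the rule's thresholds favour both. The median SD was 0.12 in these 102 and 0.62 in the other 30.

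Members with a wide spread included CEP112, a centrosomal protein, with 15, 0.27 and 4.23 TPM in the 6 h controls and 5.14, 0.11 and 3.8 TPM in the 6 h treated libraries. At 24 h CEP112 had 18.6, 5.59 and 4.87 TPM in the controls and 27.3, 66.4 and 27.9 TPM in the treated libraries, so that only the late groups were apart. At 0 TPM in at least 1 library were 8 members, where an exact 0 can be a failed estimate, and 36 members had a mean under 5 TPM, where log2(TPM + 1) understates a change. The member whose smaller difference was the largest of the 132, ENSSSCG00000024917, had no symbol, -1.82 at 6 h and 1.43 at 24 h.

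Of 293 symbols on 13 pathway lists, 242 were candidates and 5 of these were members (2.07%, beside 1.16% of all candidates): ID1 among 29 immediate-early and short-lived transcripts, INSIG1 among 21 genes of cholesterol and fatty acid synthesis, IFI6 among 14 interferon response genes, VIL1 among 22 epithelial barrier genes and BHLHE40 among 12 clock genes. No gene of the other 8 lists, among them the cell cycle, DNA replication, NRF2 and p53 lists, was a member. With 12 to 29 candidates on each list, a count of 0 says little about a list.

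The lists differed in which of the 2 thresholds their genes met. Over all candidates 31.8% met the early threshold and 9.95% the late one. Of the 24 cell cycle genes, 23 were lower at 6 h by at least 0.5 and 0 were higher at 24 h by as much, while 20 were lower at 24 h, against 7.11% of all candidates. Of the 22 barrier genes, 11 met the early threshold and 2 the late one, the latter near the share of all candidates. The median differences of the barrier list were -0.55 at 6 h and 0.07 at 24 h. EPCAM, an epithelial adhesion protein on that list, had -0.95 at 6 h and 0.20 at 24 h. Of the 14 interferon genes, 11 were higher at 24 h, against 9.95% of all candidates. At 6 h 5 of them were higher and 1, IFI6, was lower, and the medians were 0.21 at 6 h and 0.70 at 24 h. Of the 21 genes of lipid synthesis, 13 met the early threshold and 1, INSIG1, the late one. Of the 18 NRF2 response genes, 15 were higher at 6 h, against 15.8% of all candidates, and 14 at 24 h.

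On the averaged change, 40.4% of all genes tested passed as higher at 24 h and 33.3% as lower, and the median of the candidates was 0.03. Of the 22 barrier genes, 21 passed as higher and 1 as lower, with a median of 0.70. Of the 24 cell cycle genes, 22 passed as lower and 2 as higher, with a median of -0.99. VIL1 rose by 0.74 (SE 0.08, limma adjusted p = 5.87e-06) and ID1 by 0.97 (SE 0.10, limma adjusted p = 5.16e-06), with control differences of 0.04 and -0.38. BHLHE40 rose by 0.60 (SE 0.05, limma adjusted p = 7.31e-07) and IFI6 by 1.04 (SE 0.11, limma adjusted p = 6.17e-06), each in the direction of most genes of its list that passed. The rises of these members too include the treatment differences that chose them.

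Outside the named genes stood 40 further members with a symbol and 39 without. Those with a symbol had mean levels of 1.91 to 70.9 TPM with a median of 16.7, early differences of -1.99 to -0.50 and late ones of 0.50 to 2.34. In 29 of them treated and control libraries did not overlap at either time, and in the averaged change 28 passed as higher at 24 h and 1 as lower. Those without a symbol had mean levels of 1.09 to 343 TPM with a median of 6.92, early differences of -1.82 to -0.51 and late ones of 0.50 to 2.43. In 23 of these the libraries did not overlap at either time, and 23 passed as higher and 3 as lower. Over all candidates 11.7% had no overlap at both times in these directions, which the rule favours. Of all genes tested 40.4% passed as higher and 33.3% as lower.

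**Figure D5:**
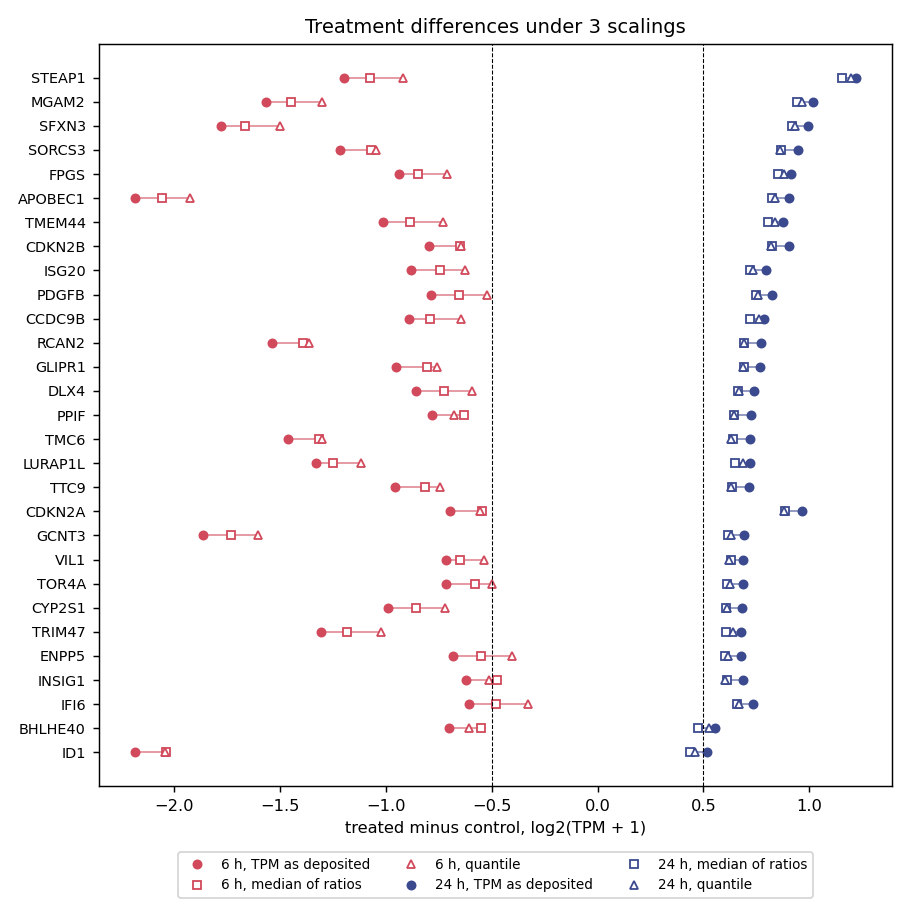
Treated minus control in log2(TPM + 1) at 6 h (red) and 24 h (blue) for the 25 members named by size and the other 4 on the pathway lists, with TPM as deposited (filled circles), median-of-ratios rescaling (squares) and quantile normalization (triangles). Dashed lines mark -0.5 and 0.5. Rescaling moved every early value towards 0. IFI6, INSIG1, BHLHE40 and ID1 at the foot of the plot crossed a threshold under at least 1 rescaling. TOR4A and ENPP5, named by size, crossed the early one after quantile normalization.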

How the data were processed

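RNA was measured by sequencing in 12 libraries of IPEC-J2 cells. The authors deposited a table of TPM for 31908 Ensembl pig identifiers and 610 assembled loci, and per the submitters' processing notes fastp, HISAT and RSEM were used. Versions, the genome build and the annotation are not given in the sources used here, so no coordinates or sequences are printed. TPM keeps no sequencing depth, and for that reason intervals and floors from counts are not given, and a rise in some genes lowers all others. Between 12565 and 14066 identifiers were listed at 0 per library. A names table paired 15029 identifiers with symbols.

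Values were analysed as log2(TPM + 1). The members and lists were chosen with earlier results of these data known. The averaged time change was fitted with limma 3.58.1 under R 4.3.3, using a trended empirical Bayes prior, over the 11897 genes that averaged 1 TPM or more, all 4 groups in one fit with 8 residual degrees of freedom. The fit was tested on simulated data.

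Named by rule were the 25 members with a symbol that had the largest smaller difference, no overlap at either time and no library at 0, and each member on a pathway list. Other named members were picked after their values were seen, and 1 result is not reported here. Alternatives were a pseudocount of 0.1, no filter, a minimum mean TPM of 5, the 2 rescalings, a replicate block, no trend in the prior variance, thresholds of 0.4 and 0.7, and leaving out each library.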

Additional observations from a re-analysis of the deposited data

How the results depend on the processing

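The number of members was 132 as reported, 213 with a pseudocount of 0.1, 60 after median-of-ratios rescaling, 59 after quantile normalization, 274 with a threshold of 0.4 and 34 with one of 0.7. A minimum mean TPM of 5 gave 96 and no filter 136. Leaving out one library at a time gave 117 to 161 members, of which 111 to 129 were among the 132. Members that passed in the averaged change numbered 97 to 101, and all genes that passed 8452 to 8674, when one library was left out, against 103 and 8765.

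Deviations of same-numbered libraries from their groups correlated by 0.013 on average over 18 pairs, from -0.12 to 0.11. No strong pairing by number was seen. Such values cannot tell whether same-numbered libraries shared a culture or batch. With the replicate block 102 members and 8733 genes passed. Of the averaged changes of 53 named members under 17 alternatives each, 887 kept their direction and side of the threshold, 6 newly passed, 6 no longer passed and 2 changed sign. The sign changes were FERMT2 (-0.042) and STEAP1 (-0.045) after quantile normalization, where neither passed. DPP4 passed without 6 h treated replicate 1 (0.99) and 24 h control replicate 1 (0.87), MTAP without 24 h control replicate 1 (0.09), and PPIF without 24 h control replicate 2 (-0.16), without 24 h treated replicate 3 (-0.18) and after median-of-ratios rescaling (-0.15). After quantile normalization EGLN3 (0.08) and TMEM44 (0.14) did not pass, and SORCS3 did not pass when any 1 of the 4 libraries named above was left out. The cause was not tested.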

Other observations

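Assembled loci without an Ensembl identifier, which the rule leaves out, met the same thresholds more often. With a mean TPM of at least 1 there were 531 such loci, and 26 of them (4.9%) met both thresholds of 0.5 log2 units, against 1.16% of the Ensembl genes. Among them MSTRG.15625 had -2.35 at 6 h and 3.19 at 24 h. The median within-group SD of these loci was 0.27, against 0.09 for the Ensembl genes.

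Members without a symbol were 29.5% of the 132, against 14.3% of the candidates. Their median within-group SD was 0.27 and that of members with a symbol 0.12. Treated and control libraries overlapped at one time or both in 16 of the 39 without a symbol and in 14 of the 93 with one.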
